A study of Mus musculus with 8 samples.

Results

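The small leucine-rich proteoglycans (SLRPs) are secreted matrix proteins built from a core of leucine-rich repeats, most of which carry 1 or more sugar chains of the chondroitin, dermatan or keratan sulfate type. They bind collagen fibrils and set how thick and how evenly spaced these become, and several of them also bind growth factors such as TGF-β or receptors of the cell surface. Fibroblasts are a main source of them in connective tissue. Here 9 of their genes were followed, namely Dcn, Bgn and Aspn of class I, Lum, Fmod, Prelp and Omd of class II, Ogn of class III and Podn of class V. Every probe set that the array annotation gives to 1 of these symbols was read, which made 20 probe sets of the 45037 on the array that are not controls, and 9 of 18193 genes.

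The cells were mouse adult fibroblasts (MAFs) of the peritoneal fascia from mice with loxP sites in both copies of Rb, the gene of the retinoblastoma protein RB. All 4 populations, the controls included, expressed p53DD, a truncated p53 that acts as a dominant negative, from a retrovirus. GFP Naïve cells (RB+p53DD, untreated) had received an adenovirus with GFP alone, and Cre Naïve cells (RB-p53DD, untreated) one with GFP and Cre recombinase, so Cre acted in every cell that the virus reached and not in a chosen cell type. GFP Recurred and Cre Recurred cells (RB+p53DD and RB-p53DD, recurred) were the corresponding cells after 24 h of cisplatin (CDDP) and regrowth. The infected cells had been selected and pooled before any cisplatin. Whether a recurred population regrew from few or many of them was not measured. The labels call the 2 arrays of each population biological replicates. The comparisons address whether the matrix genes of these fibroblasts differed with RB status, with recurrence after cisplatin, and with both.

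Signals were deposited as log2 values of the Robust Multichip Average (RMA), and a difference of 1 on this scale is 2-fold. Differences were tested with limma over all 45037 probe sets. A gene is said to be higher or lower where it passed the study's thresholds, a 1.5-fold difference with an adjusted p under 0.25, and a stricter adjusted p under 0.05 is named where it was met. With 2 arrays in each population, the smallest two-sided p of an exact permutation test is 0.333, so none was run. No detection calls were used, so a low signal is not shown to be above background, and differences that rest on one are given on the log2 scale of the signals with no fold. Levels were compared between populations for 1 probe set at a time and never between genes.

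Rb1 itself gave 7.98 and 8.07 on the GFP Naïve arrays, 6.21 and 5.72 on the Cre Naïve arrays, 8.21 and 8.78 on the GFP Recurred arrays and 4.98 and 5.45 on the Cre Recurred arrays, which follows the labels. Where its probes lie relative to the deleted part was not analysed. The summed log2 signal of 10 fibroblast markers lay between 15.05 and 15.95 on the 8 arrays, with Vim, an intermediate filament gene, between 13.17 and 13.58 and Fap, a protease gene of activated fibroblasts, between 3.65 and 7.45. Of the leukocyte markers, the defining gene Ptprc lay between 2.95 and 3.19, while Cd14 reached 9.94 and Csf1r 8.19. Of the endothelial markers, Cdh5 lay between 3.63 and 4.32 and Kdr between 5.91 and 6.23. The replicates of a population differed more for the proteoglycan genes than for the rest of the array. Over all probe sets the median difference between the 2 replicates was 0.19 in GFP Naïve, 0.19 in Cre Naïve, 0.14 in GFP Recurred and 0.18 in Cre Recurred cells, and over the 9 proteoglycan genes it was 1.17, 0.70, 0.27 and 1.57. Cre Recurred replicate 1 gave the lowest of the 8 signals at 17 of the 20 probe sets, against 15% of all probe sets. For several members the difference between the recurred cells is therefore also given without it. Counts over other gene lists, and counts of arrays that did not overlap, were not repeated without it. Cre Naïve replicate 2 stood apart from Cre Naïve replicate 1 for several members, and the difference of Lum against Cre Naïve cells is also given without it. In RNA from a whole population, fewer cells of a type and less RNA per cell cannot be told apart.

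The genes lie mostly side by side. On chromosome 10 of GRCm38.p6, Dcn (97479500 to 97518163) and Lum (97565501 to 97572703) are 47.3 kb apart. On chromosome 1, Prelp (133910304 to 133930102) and Fmod (134037254 to 134048280) are 107 kb apart. Aspn, Omd and Ogn follow each other on chromosome 13 with gaps of 14.9 and 15.4 kb, within the span of the overlapping gene Cenpp. Podn is on chromosome 4 and Bgn on the X chromosome. RefSeq promoters of GRCm38.p6 were at hand for 7 of the 9 genes, and those of Fmod and Prelp, which are neighbours, of Aspn, whose signal had a wide range, and of Bgn, whose signal hardly varied, are shown as the 250 bases before the start, 5′ to 3′ on the gene's strand, with each CG in capitals.

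Fmod promoter: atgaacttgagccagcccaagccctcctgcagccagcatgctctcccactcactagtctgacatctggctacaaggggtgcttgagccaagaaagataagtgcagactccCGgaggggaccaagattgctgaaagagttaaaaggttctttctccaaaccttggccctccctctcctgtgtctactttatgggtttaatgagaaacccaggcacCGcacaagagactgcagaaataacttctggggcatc
Prelp promoter: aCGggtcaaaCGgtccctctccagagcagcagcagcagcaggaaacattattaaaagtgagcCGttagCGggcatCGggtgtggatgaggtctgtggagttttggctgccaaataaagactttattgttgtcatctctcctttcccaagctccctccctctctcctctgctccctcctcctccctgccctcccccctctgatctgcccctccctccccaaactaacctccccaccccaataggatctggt
Aspn promoter: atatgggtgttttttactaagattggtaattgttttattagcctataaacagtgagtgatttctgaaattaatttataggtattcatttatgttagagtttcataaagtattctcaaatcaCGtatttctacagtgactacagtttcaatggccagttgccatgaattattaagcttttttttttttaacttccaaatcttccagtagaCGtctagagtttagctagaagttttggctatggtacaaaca
Bgn promoter: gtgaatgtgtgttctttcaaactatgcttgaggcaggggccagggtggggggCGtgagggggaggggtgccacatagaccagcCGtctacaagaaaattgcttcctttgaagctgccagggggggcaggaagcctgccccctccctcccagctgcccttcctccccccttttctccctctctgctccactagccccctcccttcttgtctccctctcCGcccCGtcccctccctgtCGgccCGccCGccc

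For Prelp the start is the one of the RefSeq promoter table, which lies inside the gene's span and not at its outer end. These stretches are chr1:134037004-134037253 on the plus strand for Fmod, chr1:133921402-133921651 on the minus strand for Prelp, chr13:49544193-49544442 on the plus strand for Aspn and chrX:73483351-73483600 on the plus strand for Bgn. Fmod and Aspn hold 2 CG each, Prelp holds 5 and Bgn 7, where the median over 32851 promoters is 6. Among those promoters, 29% have as few CG as Fmod and Aspn or fewer, 49.6% as few as Prelp and 57% as few as Bgn. Omd holds 1 CG, Ogn holds 4, and the 2 promoters listed for Podn hold 32 and 7. The letters TATAAA on either strand occur in the stretches of Aspn and Ogn and in 12.4% of all promoters. These are counts of letters, and DNA methylation was not measured.

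The main difference was between the recurred populations. At every one of the 20 probe sets, against 41.8% of the array, the mean was lower in Cre Recurred than in GFP Recurred cells, and 13 of them, from 6 of the 9 genes (Lum, Fmod, Prelp, Aspn, Dcn and Omd), passed the study's thresholds as lower. On the whole array 8.85% of probe sets passed in this comparison and 4.78% passed as lower. The arrays did not overlap at 16 of the 20 probe sets, all lower, against 20.7% of the array. Probe sets of 1 gene are not independent, and 6 of the 20 belong to Fmod, so counts of probe sets weigh such genes more. At the brightest probe set of each gene, the arrays did not overlap for 8 of the 9 genes. Over the 9 genes, each taken at its brightest probe set on average, the median log2 difference was -1.60, and over all probe sets it was 0.05. Without Cre Recurred replicate 1 the log2 difference was -6.72 for Lum, -1.90 for Fmod, -2.10 for Prelp, -0.82 for Dcn and -0.65 for Omd. Fewer member probe sets passed without that array or without either GFP Recurred array. The share of the whole array that passed was not counted in those fits, so the loss of calls is not set against it.

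**Figure D1:**
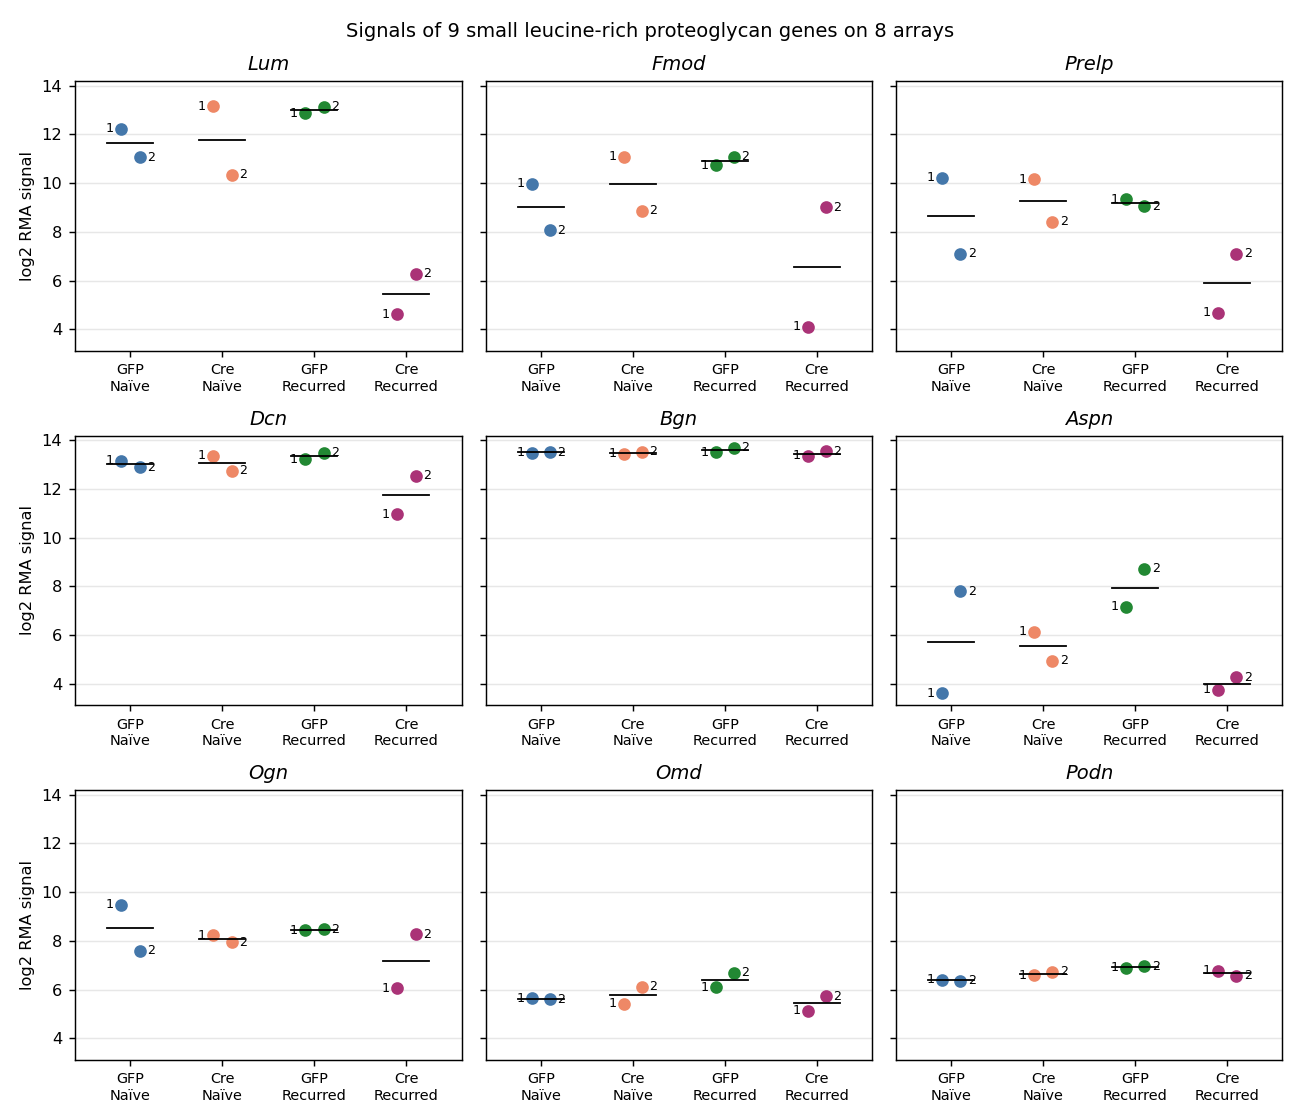
Log2 RMA signal (vertical axis) of 9 small leucine-rich proteoglycan genes in the 4 populations, each gene at its probe set with the highest mean. Points are arrays numbered by replicate and lines are means of 2 arrays. The Cre Recurred arrays give 4.61 and 6.28 for Lum, below the 6 others, while all 8 arrays lie between 13.35 and 13.68 for Bgn.

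Lum encodes lumican, a keratan sulfate proteoglycan known for the even spacing of collagen fibrils in the cornea, and it is also made in skin and tendon. Lum gave 12.23 and 11.06 on the GFP Naïve arrays, 13.15 and 10.35 on the Cre Naïve arrays, 12.86 and 13.13 on the GFP Recurred arrays, and 4.61 and 6.28 on the Cre Recurred arrays. The Cre Recurred arrays were below each of the 6 others, the lowest of which was the second Cre Naïve array at 10.35. Between Cre Recurred and GFP Recurred cells the log2 difference was -7.55 (standard error 0.93, n = 2 arrays each), with an adjusted p = 0.036 from limma. Lum was thus the 1 member probe set past the stricter threshold, which 0.502% of the array passed as lower. Without GFP Recurred replicate 2 the difference of Lum was -7.41 and the adjusted p from limma was 0.34, past no threshold.

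Against the untreated cells of the same RB status, Cre Recurred cells had a log2 difference in Lum of -6.31 (standard error 0.93) with an adjusted p = 0.11 from limma. It was the only member probe set called in that comparison, where 1.16% of the array passed and 0.775% passed as lower. The difference of Lum was -7.70 without Cre Naïve replicate 2 (adjusted p = 0.016 from limma), -4.91 without Cre Naïve replicate 1 (adjusted p = 0.18), and -5.47 without Cre Recurred replicate 1 (adjusted p = 0.60). Fitted on the compared arrays alone, it missed the thresholds (adjusted p = 0.41 from limma). Lum was also the only member lower in Cre Recurred than in GFP Naïve cells, by a log2 difference of -6.20 (adjusted p = 0.085 from limma), where 3.05% of the array passed and 2.07% passed as lower. Without Cre Recurred replicate 1 that adjusted p from limma was 0.37.

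In order of the mean, Lum was 12.99 in GFP Recurred, 11.75 in Cre Naïve, 11.65 in GFP Naïve and 5.44 in Cre Recurred cells. Both GFP Recurred arrays lay within the range of the Cre Naïve pair, and the Cre Naïve and GFP Naïve means differed by 0.10 (standard error 0.93). The GFP Recurred arrays lay above both GFP Naïve arrays, but the log2 difference of 1.34 (standard error 0.93) did not pass (adjusted p = 0.89 from limma). Whether the change on recurrence differed between the RB states was tested as an interaction. For Lum it was -7.65 (standard error 1.31) with an adjusted p = 0.23 from limma, just within the study's thresholds, which 0.4% of the array passed. The interaction of Lum lost its call with the replicate number as a block (adjusted p = 0.254 from limma) and with a trended and robust prior (adjusted p = 0.30). It also did when either GFP Recurred array was left out (adjusted p = 0.63 and 0.85 from limma), when Cre Recurred replicate 1 was (adjusted p = 0.67) and when either GFP Naïve array was (adjusted p = 0.32 and 0.28).

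Fmod encodes fibromodulin, which binds type I collagen and takes part in the maturation of fibrils. At its brightest probe set it gave 9.97 and 8.07 on the GFP Naïve arrays, 11.08 and 8.87 on the Cre Naïve arrays, 10.74 and 11.09 on the GFP Recurred arrays, and 4.11 and 9.01 on the Cre Recurred arrays. The Cre Recurred replicates differed by 4.90, and replicate 2 lay inside the range of the untreated arrays. All 6 probe sets of Fmod were lower in Cre Recurred than in GFP Recurred cells, by log2 differences from -4.35 (standard error 1.52, adjusted p = 0.21 from limma) to -2.31 (standard error 0.75, adjusted p = 0.19). Of these 6, 5 have names that mark probes which may also match other transcripts. The probe set without such a mark gave -3.03 (standard error 0.96, adjusted p = 0.18 from limma). Without Cre Recurred replicate 1 the brightest probe set differed by -1.90 and did not pass. Against Cre Naïve cells the 6 log2 differences ran from -3.42 to -1.46, and none passed (adjusted p from limma 0.43 for the brightest).

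Prelp encodes a proline and arginine rich relative that binds collagen and the heparan sulfate of basement membranes. Prelp gave 10.21 and 7.11 on the GFP Naïve arrays, 10.15 and 8.42 on the Cre Naïve arrays, 9.33 and 9.06 on the GFP Recurred arrays, and 4.68 and 7.10 on the Cre Recurred arrays. Both Cre Recurred arrays lay below the 6 others, although the higher of them, 7.10, was next to the 7.11 of GFP Naïve replicate 2. Prelp was lower in Cre Recurred than in GFP Recurred cells by a log2 difference of -3.30 (standard error 1.15, adjusted p = 0.21 from limma), and without Cre Recurred replicate 1 by -2.10, which did not pass (adjusted p = 0.66). Its second probe set differed by -2.09 (standard error 0.87) and missed the threshold with an adjusted p = 0.29 from limma, so the pair of probe sets did not give the same call. The name of the one that passed marks probes which may also match other transcripts, and that of the second does not. Against Cre Naïve cells the values were -3.40 and -2.38, with adjusted p from limma of 0.36 and 0.38.

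Among Lum, Fmod, Prelp and Aspn, the 4 members with the widest ranges, Fmod and Prelp had the most alike patterns. Once each gene was set to its own mean over 8 arrays, the root mean square difference between Fmod and Prelp was 0.88, against 1.68 between Fmod and Lum and 1.71 between Prelp and Lum. On Cre Recurred replicate 2, Lum stayed at 6.28 while Fmod was at 9.01, against 8.07 to 11.09 for Fmod on the 6 arrays of the other populations. This measure is a description over 8 arrays.

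Omd encodes osteomodulin, a keratan sulfate proteoglycan known from bone. It gave 5.64 and 5.60 on the GFP Naïve arrays, 5.42 and 6.12 on the Cre Naïve arrays, 6.09 and 6.68 on the GFP Recurred arrays, and 5.13 and 5.74 on the Cre Recurred arrays. The Cre Recurred arrays were below the GFP Recurred arrays but not below the untreated ones. The log2 difference between the recurred cells was -0.96 (standard error 0.31, adjusted p = 0.19 from limma). Without Cre Recurred replicate 1 it was -0.65 and did not pass (adjusted p = 0.615), and against Cre Naïve cells it was -0.33 (adjusted p = 0.68).

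Dcn encodes decorin, the class I proteoglycan that coats type I collagen fibrils and binds TGF-β. Dcn gave 13.14 and 12.88 on the GFP Naïve arrays, 13.35 and 12.74 on the Cre Naïve arrays, 13.21 and 13.48 on the GFP Recurred arrays, and 10.95 and 12.53 on the Cre Recurred arrays. At this probe set both Cre Recurred arrays were below all the others, replicate 2 by 0.22 and replicate 1 by 1.79 relative to the lowest of the 6. At the second probe set Cre Recurred replicate 2, at 5.63, was above the 5.30 of GFP Naïve replicate 2. Dcn was lower in Cre Recurred than in GFP Recurred cells, with a log2 difference of -1.60 (standard error 0.47, adjusted p = 0.15 from limma), or 3.04-fold, and -2.06 at its second probe set (standard error 0.62, adjusted p = 0.16). Without Cre Recurred replicate 1 the difference of the first probe set was -0.82 and did not pass. Against Cre Naïve cells Dcn differed by -1.31 (standard error 0.47, adjusted p = 0.37 from limma), which did not pass.

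Aspn encodes asporin, which resembles decorin but has a run of aspartates and no sugar chain of this kind. It gave 3.63 and 7.79 on the GFP Naïve arrays, 6.13 and 4.94 on the Cre Naïve arrays, 7.17 and 8.73 on the GFP Recurred arrays, and 3.76 and 4.26 on the Cre Recurred arrays. The GFP Naïve replicates spanned 4.17, most of the 5.10 that the 8 arrays spanned, and GFP Naïve replicate 1 was as low as the Cre Recurred arrays. Aspn was lower in Cre Recurred than in GFP Recurred cells, with a log2 difference of -3.94 (standard error 1.24, adjusted p = 0.18 from limma) at one probe set and -3.93 (standard error 1.02, adjusted p = 0.12) at the other. The name of the other marks probes which may also match other transcripts. The first lost its call without any 1 of the 4 recurred arrays, with differences from -4.72 to -3.16 (adjusted p from 0.27 to 0.60 in limma). Against Cre Naïve cells the first differed by -1.53 (adjusted p = 0.63 from limma), and against GFP Naïve cells by -1.70 (adjusted p = 0.58). Without GFP Naïve replicate 2 the difference of GFP Recurred over GFP Naïve cells in Aspn was 4.32 with an adjusted p = 0.248 from limma, and without GFP Naïve replicate 1 it was 0.15.

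Bgn encodes biglycan, the closest relative of decorin, which also acts as a ligand of Toll-like receptors. It gave 13.48 and 13.51 on the GFP Naïve arrays, 13.44 and 13.53 on the Cre Naïve arrays, 13.50 and 13.68 on the GFP Recurred arrays, and 13.35 and 13.53 on the Cre Recurred arrays. The range over 8 arrays was 0.33, against 2.52 for Dcn. Between the recurred cells the log2 difference of Bgn was -0.15 with a 95% interval of -0.46 to 0.16, and its 2 other probe sets gave -0.11 and -0.07.

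Ogn, whose product osteoglycin (mimecan) is the class III member found in many connective tissues, gave 9.48 and 7.60 on the GFP Naïve arrays, 8.23 and 7.94 on the Cre Naïve arrays, 8.43 and 8.48 on the GFP Recurred arrays, and 6.06 and 8.26 on the Cre Recurred arrays. The low value of Cre Recurred replicate 1 was not shared by replicate 2. The log2 difference between the recurred cells was -1.29 (standard error 0.78, 95% interval -3.14 to 0.56, adjusted p = 0.47 from limma). Its second probe set ranged from 5.94 to 8.36 over the 8 arrays and differed by -0.73 (adjusted p = 0.60), with overlapping arrays. Podn encodes podocan, a class V member that was first described in kidney. It gave 6.41 and 6.36 on the GFP Naïve arrays, 6.59 and 6.73 on the Cre Naïve arrays, 6.90 and 6.96 on the GFP Recurred arrays, and 6.77 and 6.56 on the Cre Recurred arrays. The recurred populations differed by -0.26 in Podn (95% interval -0.57 to 0.04, adjusted p = 0.36 from limma).

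**Figure D2:**
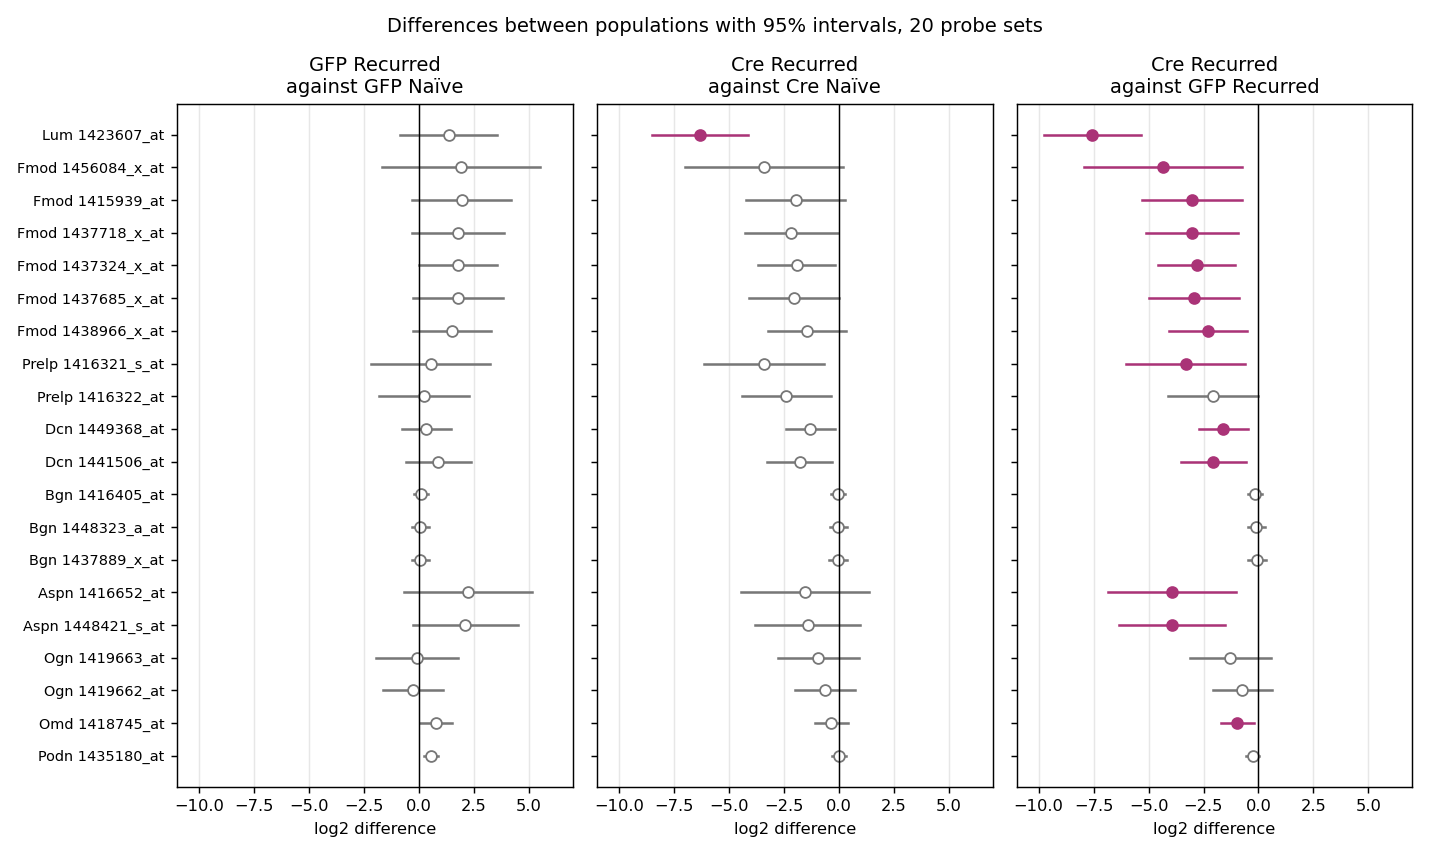
Log2 differences (horizontal axis) of 20 probe sets with 95% intervals from limma, for GFP Recurred against GFP Naïve, Cre Recurred against Cre Naïve and Cre Recurred against GFP Recurred cells. Filled points passed the study's thresholds, which holds for 0, 1 and 13 probe sets, and in the third panel all 20 points lie below 0.

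Between the untreated populations none of the 20 probe sets passed, as 0% of the array did, and none had an unadjusted p under 0.05 in limma. Of the 9 genes, 6 had a positive log2 difference of Cre Naïve over GFP Naïve cells, with a median of 0.10. The largest was that of Fmod at 0.96 (standard error 1.52), which is within the spread of either pair of replicates. The 2 replicates differed by over 1 in 5 of the 9 genes in GFP Naïve and in 4 in Cre Naïve cells, and the 95% interval of the difference in Lum ran from -2.09 to 2.29.

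On recurrence with RB present, 18 of the 20 probe sets had a higher mean in GFP Recurred than in GFP Naïve cells, but none passed the thresholds, as 0.0133% of the array did. A lower mean was found at 2 of the 20 and at 48.3% of the array. The arrays did not overlap at 10 probe sets, all higher, from Dcn, Lum, Fmod, Omd and Podn, against 20.8% of the array. An unadjusted p under 0.05 in limma was found at 3 of the 20 probe sets and at 2485 of 45037. Podn had the smallest, with a log2 difference of 0.55 (standard error 0.13, adjusted p = 0.80 from limma). The log2 difference was 2.24 for Aspn (standard error 1.24), 1.89 for Fmod (standard error 1.52), 1.34 for Lum (standard error 0.93) and 0.77 for Omd (standard error 0.31). The GFP Recurred arrays lay close together, and replicate 2 was the highest of all 8 at 15 of the 20 probe sets, against 9.77% of the array.

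On recurrence without RB, 19 of the 20 probe sets had a lower mean in Cre Recurred than in Cre Naïve cells, as had 41.1% of the array, and the arrays did not overlap at 10 of them, all lower, against 16% of the array. These came from Lum, Dcn, Prelp, Aspn and Fmod. The count of called probe sets was 1 with all arrays. It changed when some single arrays were left out, and the share of the whole array that passed was not counted in those fits. Without Cre Recurred replicate 1 the log2 difference was -0.52 for Dcn and -0.97 for Fmod, and without replicate 2 it was -2.09 and -5.86. Against GFP Naïve cells the arrays did not overlap at 4 probe sets, 1 each of Lum, Dcn, Aspn and Prelp, that were lower, against 16.2% of the array, and at that of Podn, whose difference was 0.28. For the interaction all 20 values were negative, as were 43.8% on the whole array, and 13 had an unadjusted p under 0.05 in limma, as had 4656 of 45037, with adjusted p from limma of 0.36 to 0.47 for Dcn and Fmod at the probe sets whose arrays moved in opposite directions.

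The neighbours of these genes on the chromosomes mostly varied little. Several of them gave low signals on all arrays that are not shown to be above background, where a fall could not be seen. Kera, the keratocan gene on the far side of Lum, gave 3.30 and 3.64 on the Cre Recurred arrays and 2.99 to 5.28 on the others, and the signal of Epyc beyond it had a range of 0.45. Optc, beside Prelp, lay between 5.98 and 6.58, and Btg2, beside Fmod, between 7.81 and 8.87. Further out on that side, Chil1, which encodes a chitinase-like secreted protein, was lower in Cre Recurred than in GFP Recurred cells by a log2 difference of -5.72 (adjusted p = 0.033 from limma). Its signals of 3.71 and 4.47 on the Cre Recurred arrays were below the 6.68 to 10.24 of the others, and its difference against Cre Naïve cells was -3.51 (adjusted p = 0.20 from limma). On chromosome 13, Ecm2 lay between 4.02 and 4.33 and Nol8 between 7.90 and 8.45.

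**Figure D3:**
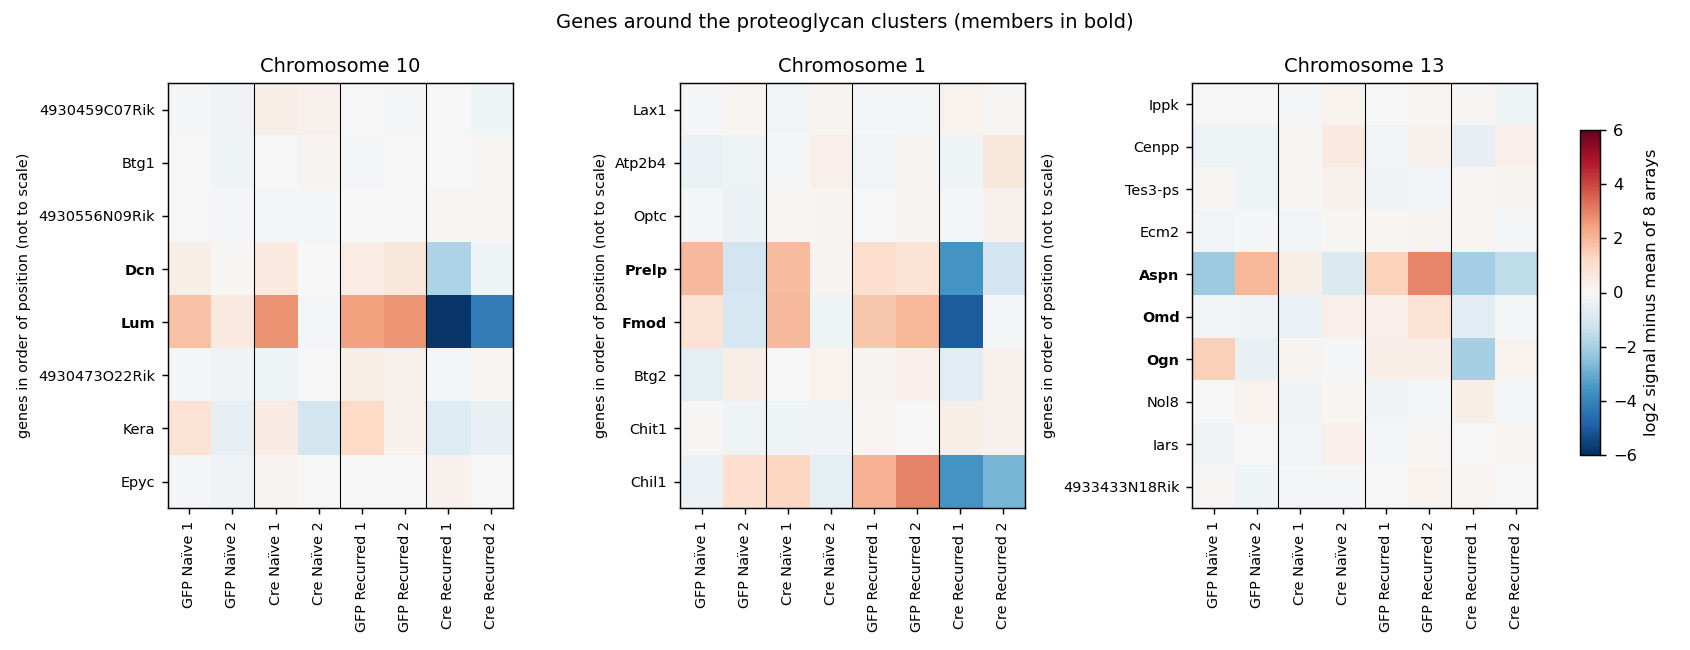
Log2 signal minus the mean of 8 arrays (colour) for genes in order of position around the clusters on chromosomes 10, 1 and 13, with the 8 arrays in columns and the proteoglycan genes in bold. The blue cells of the Cre Recurred columns lie mostly at Lum, Prelp, Aspn and Chil1 on both arrays, and at Fmod, Dcn and Ogn on replicate 1. Most of the other genes vary less, and several of them gave low signals on all arrays.

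Of the 9 other genes of the family that were looked up, 7 had a probe set, and none passed in any of the 6 comparisons. In Cre Recurred against GFP Recurred cells their median log2 difference was 0.00. Against Cre Naïve cells the differences were 0.46 for Nyx, -0.12 for Chadl, 0.07 for Ecm2 and -0.32 for Kera. The collagens to which the proteoglycans bind were measured for 14 genes. Between the recurred cells their median log2 difference was -0.71, and 3 were lower and none higher. On the whole array 8.85% of probe sets passed in this comparison and 4.78% passed as lower. These 3 were Col14a1 (-2.18, adjusted p = 0.083 from limma) and Col12a1 (-2.14, adjusted p = 0.13), which encode collagens on the surface of fibrils, and Col6a3 (-1.05, adjusted p = 0.14), of the beaded filaments. Col14a1 gave 3.96 and 3.71 on the Cre Recurred arrays and 3.88 on Cre Naïve replicate 2. The fibril collagen gene Col1a1 gave 11.92 and 13.39 on the Cre Recurred arrays against 12.28 to 13.45 on the others. None of the 14 passed against Cre Naïve cells, with a median of -0.38, and the smallest p belonged to Col11a2 (0.39), Col6a3 (-0.70), Col12a1 (-1.33) and Col3a1 (-0.83).

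Among the enzymes that build the sugar chains, 1 of 5 genes for the linkage region was lower in Cre Recurred than in GFP Recurred cells, B4galt7 (-0.63, adjusted p = 0.093 from limma). For this and the next counts, 8.85% of the array passed and 4.78% passed as lower. Of 16 chondroitin and dermatan sulfate genes 2 were lower and 1 higher. Csgalnact1, which starts chondroitin chains, was lower with a log2 difference of -3.17 (adjusted p = 0.094 from limma), with signals of 6.84 and 7.60 on the Cre Recurred arrays and 8.47 to 10.67 on the others. The sulfotransferase gene Chst12 was lower (-1.35) and Chst7 higher (0.79). Of 7 keratan sulfate genes, the galactosyltransferase gene B4galt4 was lower (-0.72, adjusted p = 0.10 from limma) and the sulfotransferase gene Chst2 higher (0.76, adjusted p = 0.15). B4galt4 was also the only one of the enzyme genes lower in Cre Recurred than in Cre Naïve cells (-1.02, adjusted p = 0.14 from limma), where 1.16% of the array passed. The B4galt4 signals lay between 2.93 and 4.42 on the 8 arrays and are not shown to be above background. In that comparison Csgalnact1 differed by -2.36 (adjusted p = 0.33), Chst11 by -1.03 (0.39), Chst12 by -0.77 (0.37), B4galt7 by -0.54 (0.30) and Ust by 0.36 (0.35), and none of these passed.

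Of 12 genes for proteases that process collagens or cleave proteoglycans, 3 were lower and 1 higher in Cre Recurred than in GFP Recurred cells. For this and the next counts, 8.85% of the array passed and 4.78% passed as lower. The matrix metalloproteinase gene Mmp3 gave 7.27 and 7.29 on the Cre Recurred arrays and 9.49 to 12.89 on the others, a log2 difference of -4.91 (adjusted p = 0.062 from limma). Mmp13 (-4.17) and Mmp2 (-1.90) were lower as well, and Pcolce2, an enhancer of procollagen processing, was higher (1.34, adjusted p = 0.24). Of 19 receptor and growth factor genes 3 were lower, Tlr2 (-2.76), Bmp4 (-2.41) and Tgfb1 (-1.12), and 1 was higher, the integrin gene Itgb1 (0.69). Of 18 other proteoglycan genes 4 were lower and none higher, namely Gpc1, Agrn, Sdc1 and Gpc2, with log2 differences from -1.44 to -0.70. None of the genes of these lists passed against Cre Naïve cells, where Mmp3 differed by -3.76 (adjusted p = 0.26 from limma), Mmp13 by -2.32 (0.39), Tlr2 by -1.58 (0.39), Egfr by -1.14 (0.42), Tgfb1 by -0.67 (0.31), Gpc1 by -1.12 (0.31) and Gpc6 by -0.82 (0.42). The lists were chosen with earlier results of these data known, and their counts are descriptions.

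**Figure D4:**
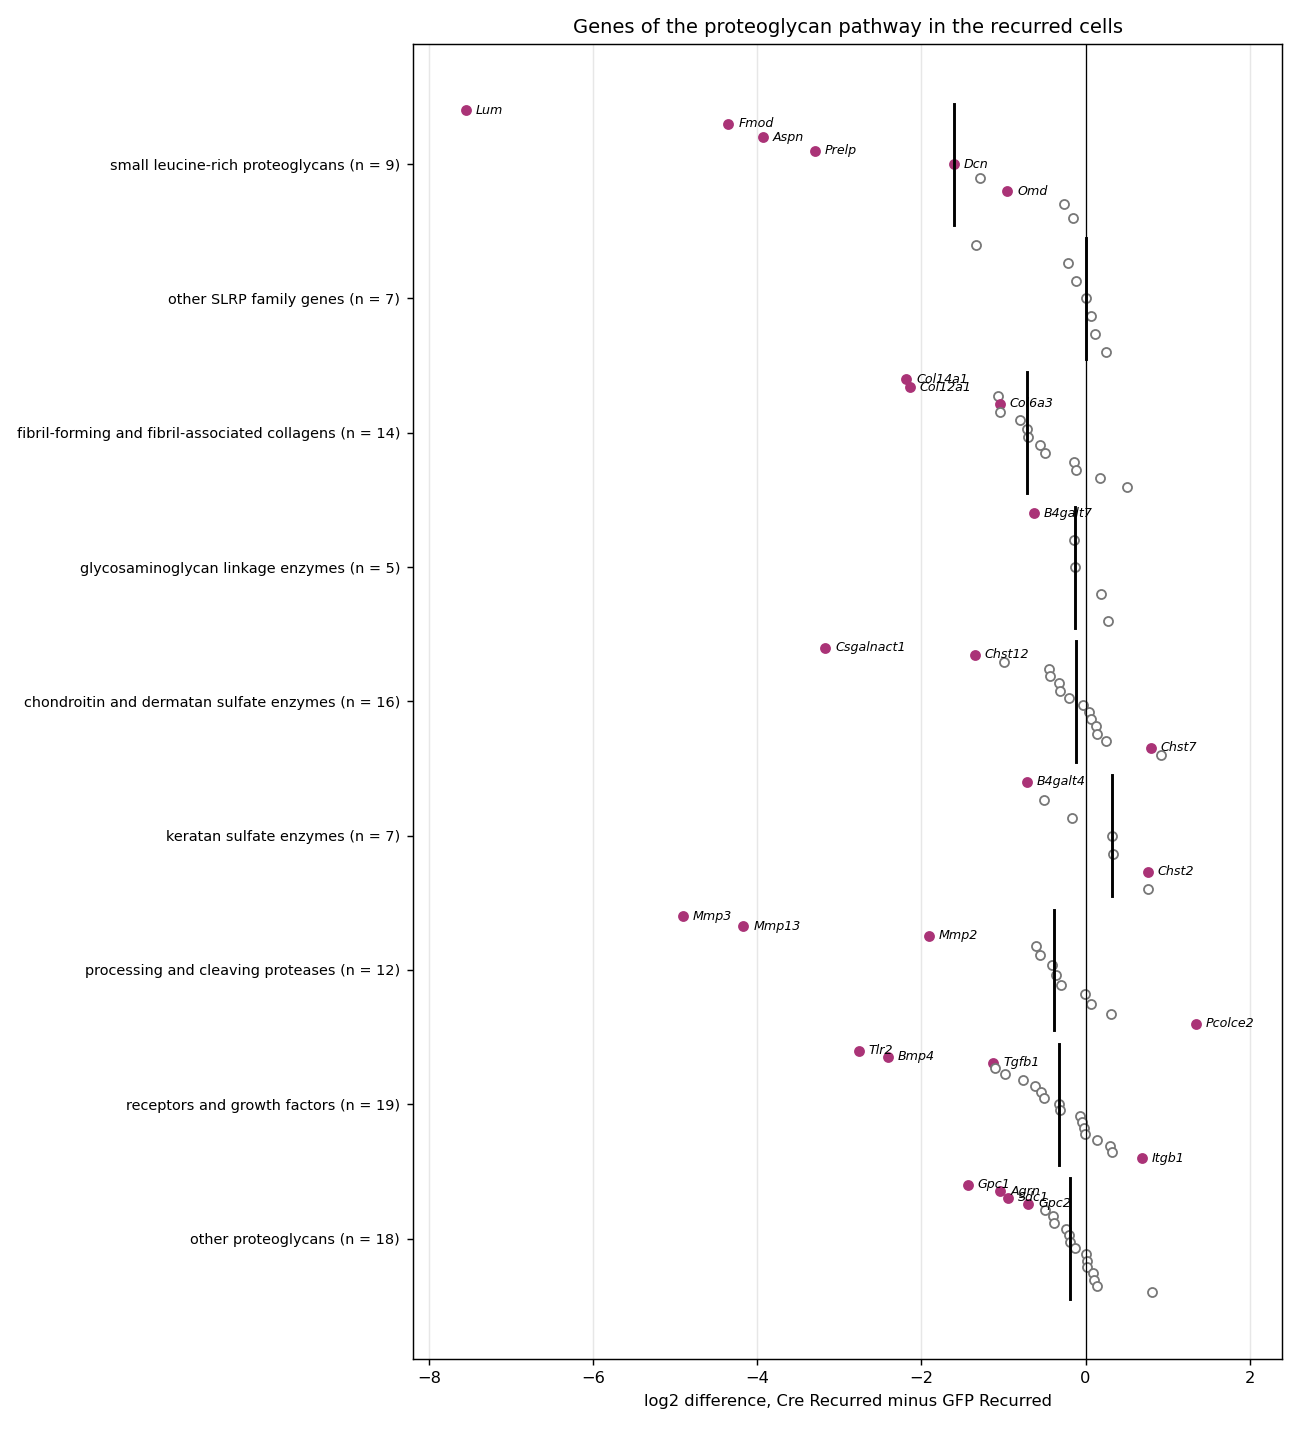
Log2 difference of Cre Recurred over GFP Recurred cells (horizontal axis) for the genes of each list, 1 point per gene, filled and named where the study's thresholds were passed. Vertical bars are medians, which are -1.60 for the 9 proteoglycans, -0.71 for collagens and 0.00 for the other genes of the family. The signals of these other genes were mostly low and are not shown to be above background.

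Markers of cell types moved with the proteoglycans on some arrays. Of the 10 fibroblast markers 3 were lower (Fap, Prrx1 and Fbln1) and 1 higher (Thy1) in Cre Recurred than in GFP Recurred cells, where 8.85% of the array passed and 4.78% passed as lower. Their summed signal, as log2, was 15.05 on Cre Recurred replicate 1 and 15.55 to 15.95 on the other arrays, and Pdgfra gave 9.93 on that array and 11.48 on Cre Recurred replicate 2. Of 4 mesothelial markers, Msln (8.85 and 7.82, against 6.15 to 6.98 on the others) and Krt7 (4.64 and 4.78, against 3.65 to 4.04) were higher in Cre Recurred cells. The low Krt7 signals are not shown to be above background. Upk3b lay between 3.85 and 4.14 throughout. Wt1 did not pass, with 4.30 and 5.96 on the Cre Recurred arrays against 4.63 to 6.24 on the others. Msln (2.14, adjusted p = 0.13 from limma) and Krt7 (0.76, adjusted p = 0.15) were also higher than in Cre Naïve cells, where 1.16% of the array passed. The summed mesothelial signal was 9.03 and 8.38 against 7.36 to 7.70. Signals were added before the log was taken, so this sum mostly follows Msln. None of the 6 leukocyte, 4 endothelial and 4 epithelial markers passed in the comparison of the recurred cells. Their summed log2 signals ran from 9.36 to 10.34 for leukocyte, 6.66 to 6.79 for endothelial and 6.75 to 7.34 for epithelial markers on the 8 arrays. The muscle gene Des was higher and the adipocyte gene Pparg lower in that comparison, each 1 of 3 markers of its list, and none of 3 cartilage and bone markers passed. The part of these markers in the lower proteoglycan signals was not tested.

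The genes whose patterns over the 8 arrays were most like those of the members were found by the same root mean square difference. For Lum they were Sfrp1, a secreted inhibitor of Wnt signalling (0.48), AW551984 (0.63) and Gpm6b (0.64). Sfrp1 had means of 12.16 in GFP Naïve, 12.02 in Cre Naïve, 13.11 in GFP Recurred and 6.26 in Cre Recurred cells. For Fmod they were Cyp7b1 (0.63), Mark1 (0.75) and Steap4 (0.88), and for Prelp Mark1 (0.47), Svep1 (0.54) and Lgi2 (0.54). Mark1 was thus among the nearest to both neighbours on chromosome 1. Dcn was nearest to Fas, the death receptor gene (0.11), Omd to Gpsm1 (0.11) and Hgf, the hepatocyte growth factor gene (0.13), and Aspn to Ahrr (0.78). For Bgn and Podn, with ranges of 0.33 and 0.60, the nearest genes were ones that varied as little.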

How the data were processed

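Expression in 4 MAF populations was measured on 8 Affymetrix arrays of the mouse genome, 1 array for each RNA sample. The authors deposited log2 RMA signals, which are corrected for background, quantile normalized and summarised per probe set. The build and version of the RMA software are not given in the sources used here. The log2 values were used as deposited, with array medians from 5.37 to 5.41. Of 45101 probe sets 64 controls were left out. By the platform annotation 34945 of the rest had 1 symbol, 932 several and 9160 none.

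All 8 arrays entered a single linear model with a mean for each population (limma 3.58.1, R 4.3.3), which left 4 residual degrees of freedom, with Benjamini-Hochberg adjustment over 45037 probe sets. The study names SAM, for which limma stood in. The fit was tested on simulated data before use. Members and lists were chosen with earlier results of these data known. All 9 members are named with every probe set or its range. From each list the rule named up to 4 genes with the smallest p in Cre Recurred against Cre Naïve cells, the 3 nearest genes on each side of a cluster, and the 3 genes with the nearest pattern to each member. List genes named for the recurred cells beyond these, and Col1a1, Pdgfra, the values of single markers and the Sfrp1 means, were chosen after their values were seen. A gene stands at its probe set with the highest mean. Gene positions came from RefSeq on GRCm38.p6. The number of arrays limits the precision. Alternatives were a trended and robust prior, cyclic loess, median centring, the compared arrays only, a replicate block, leaving out each array, a filter on dim probe sets, leaving out _s, _x and _a probe sets, and the mean of a gene's probe sets. Figures used Python 3.11.15, numpy 2.4.6, pandas 2.3.3 and matplotlib 3.10.9.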

Additional observations from a re-analysis of the deposited data

Results flagged for a closer look

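The change on recurrence differed between the RB states for Lum by an interaction of -7.65 (standard error 1.31, adjusted p = 0.23 from limma), with a log2 difference of 1.34 in cells with RB and -6.31 in cells without it. The call was lost with the replicate number as a block (adjusted p = 0.254 from limma) and with a trended and robust prior (0.30). At 4 other probe sets the GFP Recurred arrays were both above the GFP Naïve arrays and the Cre Recurred arrays both below the Cre Naïve arrays, while the interaction missed the thresholds. These were 3 of the 6 of Fmod, with -3.70 (adjusted p = 0.36 from limma), -3.80 (0.39) and -3.91 (0.39), and the brighter one of Dcn with -1.64 (0.47). Counting Lum, the arrays moved in opposite directions in this way at 5 of the 20 member probe sets and at 1755 of 45037, or 3.9% of the array. The 2 changes share no arrays, and the cause of the difference was not tested.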

How the results depend on the processing

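The count of 13 probe sets lower in Cre Recurred than in GFP Recurred cells was 6 without probe sets named _s, _x or _a, of which fewer are then tested, and ran from 0 to 14 when 1 array was left out. The count against Cre Naïve cells was 0 in a fit of the compared arrays only and 0 to 8 with 1 array left out. Against GFP Naïve cells it was 0 to 3, for GFP Recurred against GFP Naïve cells 0 to 1, for Cre Naïve against GFP Naïve cells 0 throughout, and for the interaction 0 to 9. The interaction count was 0 with a trended and robust prior. With an array left out, its partner is assumed to vary like the other arrays. The share of the whole array that passed in those fits was not counted. The labels do not say whether the replicate numbers pair the samples, and the main fit did not pair them. The deviations of same-numbered arrays correlated from -0.26 to 0.31 between populations, which cannot decide it. With the replicate number as a block, the count in the recurred cells was 12 and that of the interaction 0, and the other member counts did not move. A crossed pairing of GFP Naïve and Cre Recurred arrays, chosen after seeing the data, gave 11 member probe sets and 2540 in all.

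Single genes whose direction turned on leaving out 1 array had passed no threshold. For Cre Naïve against GFP Naïve cells the ranges were -0.27 to 0.34 for Dcn, -0.0507 to 0.0335 for Bgn, -2.26 to 1.91 for Aspn, -1.30 to 1.498 for Lum, -0.15 to 2.06 for Fmod, -0.92 to 2.18 for Prelp, -0.20 to 0.50 for Omd and -1.40 to 0.49 for Ogn. For GFP Recurred against GFP Naïve cells they were -1.02 to 2.08 for Prelp and -1.03 to 0.85 for Ogn. For Cre Recurred against Cre Naïve cells they were -0.13 to 0.0481 for Bgn, -0.68 to 0.0169 for Omd, -2.02 to 0.18 for Ogn and -0.0942 to 0.11 for Podn, and Podn was -0.0038 under cyclic loess and under median centring. For Cre Recurred against GFP Naïve cells they were -0.14 to 0.0395 for Bgn, -3.78 to 0.38 for Aspn and -0.48 to 0.12 for Omd, and for the interaction -1.93 to 0.27 for Ogn. The causes were not tested. In the pooled counts that follow, most results had passed no threshold in the main fit, and only the few that had passed could lose a call. The pooled counts therefore do not measure how stable the calls were. Over all member genes, comparisons and settings, 783 values kept their direction and side of the thresholds, 33 lost a call, 11 gained one and 28 turned direction. The differences of Lum against GFP Recurred cells kept their direction under every setting tried, from -8.38 to -6.72, and its adjusted p from limma was 0.053 with the replicate block and under 0.05 in the 7 others that kept all arrays of these populations.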
